A study of Mus musculus with 6 samples.

Results

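Mitochondrial fatty acid activation and beta-oxidation was followed through 38 genes chosen by name, from fatty acid uptake to electron transfer and malonyl-CoA control. The platform annotation gave 34 of them a row in the expression table, of 23185 genes tested in all. Acsl1, Cpt1b, Hadhb and Ucp2 had no row under their names and were not analysed here. The samples were 3 arrays from FVB mice (an inbred albino strain) with a knockout of irisin, and 3 arrays from wild type FVB mice, described as litter mates. Irisin is a peptide hormone cut from the protein that Fndc5 encodes, and the knockout line was made by injecting zygotes with Cas9 mRNA and 5 guide RNAs. Every animal of both groups had eaten a standard chow with 10% fat for 24 weeks. The labels name the material both as cardiomyocytes and as myocardium, and they give no age at sampling, no founder number and no batch. Whether each array stands for an animal of its own is not said, so p-values cover the spread between these arrays, which may be technical. A processing day that went with genotype and genotype itself cannot be told apart. In whole tissue, fewer cells of a type and less RNA per cell cannot be told apart.

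Beta-oxidation shortens fatty acids by an acetyl unit per round inside mitochondria and is the main fuel pathway of the adult heart. Acyl-CoA synthetases first activate the acid, and the carnitine palmitoyltransferases take part in its passage across the mitochondrial membranes. A dehydrogenase, a hydratase, a second dehydrogenase and a thiolase then act in turn. Electrons of the first step reach ubiquinone through the electron transfer flavoprotein and its dehydrogenase, and malonyl-CoA restrains the entry step.

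Values below are log2 expression summaries of 1 probe set per gene and array, and differences are irisin knockout minus wild type. Array medians lay between 2.23 and 2.36, and having 3 arrays in each group limits the precision. Fndc5 read 7.68, 5.49 and 5.45 in irisin knockout arrays 1, 2 and 3, against 8.42, 8.40 and 7.83 in wild type arrays 1, 2 and 3. The array labelled irisin knockout 1 thus lay close to the wild type range, and is called irisin knockout 1 after its label throughout. Where the Fndc5 probes lie relative to the deleted part is not stated. Fndc5 differed by -2.01 (SE 0.54, limma adjusted p = 0.0359, and p = 0.1 in a two-sided exact permutation test, the smallest that 3 against 3 allow). Leaving out any array other than irisin knockout 1 ended that call (adjusted p up to 0.133). For the fatty acid genes as a set irisin knockout 1 lay near the other knockout arrays. Its value minus the mean of irisin knockout 2 and 3 had a median of -0.03 over the 34 genes, with single genes from -0.44 to 0.22. Irisin knockout 1 lay above all wild type values for 25 of the 34.

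The fatty acid genes were mostly higher in the irisin knockout. Of the 34, 18 rose and 0 fell at a limma adjusted p under 0.05, and 16 did not pass. Over all genes tested 10.4% rose and 6.18% fell (2416 and 1432 genes). After each array was centred on its own median 21 of the 34 rose and 0 fell, against 13.3% of all genes higher (3090 genes, with 1008 lower). The median difference was 0.58 over the 34 genes and -0.05 over all genes, and 27 of the 34 differences were positive. All 3 knockout values lay above all 3 wild type values for 22 of the 34, against 17.2% of all genes. The rises that passed ranged from 0.54 for Acad9 to 2.45 for Acss1.

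**Figure D1:**
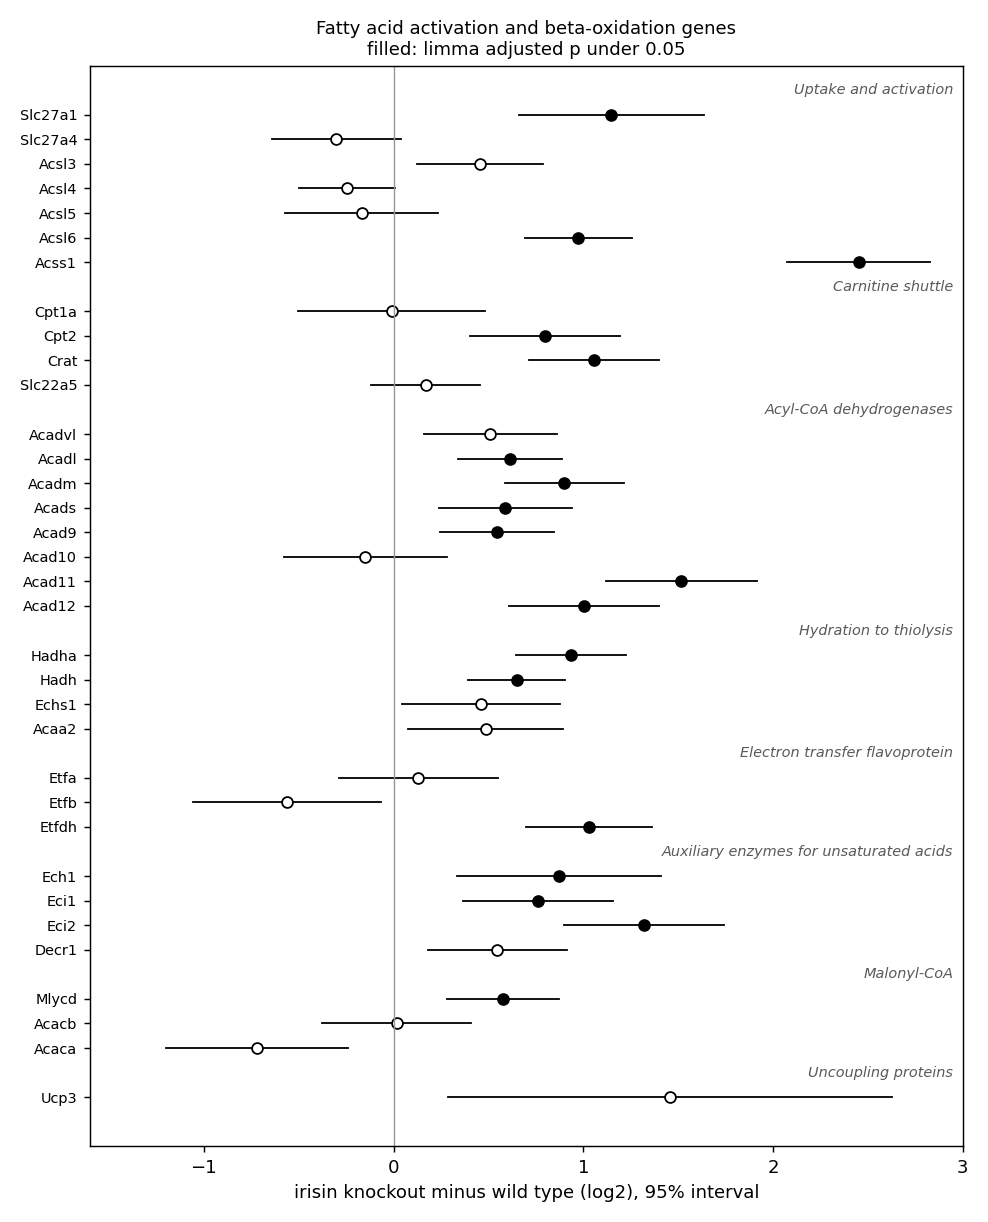
Difference of each gene by role (horizontal axis, log2, irisin knockout minus wild type). Points are limma estimates from 3 arrays per group, bars are 95% intervals, and filled points passed the adjusted threshold; Acss1 stands farthest right at 2.45 and Acaca farthest left at -0.72.

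Most of these genes are bright on the array, and bright genes as a whole read higher in the knockout. Sorting all genes by mean level into 10 groups of equal size put 21 of the 34 into the brightest group. There 14 of 21 rose and 0 fell, with a median of 0.76, against 34.5% higher and 11.1% lower and a median of 0.27 for all 2319 genes of that group. All 3 knockout values lay above the wild type values for 17 of the 21, against 47.7% of that group. Among the other 13 genes 4 rose, with a median of 0.17, against 16.6% and a median of 0.02 for all genes of the level groups 6 to 9 that hold them. After centring on array medians, 16 of the 21 in the brightest group rose, against 40.3% of that group. Read against genes of like brightness, the share that rose was thus closer to the background than it was over the whole array.

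**Figure D2:**
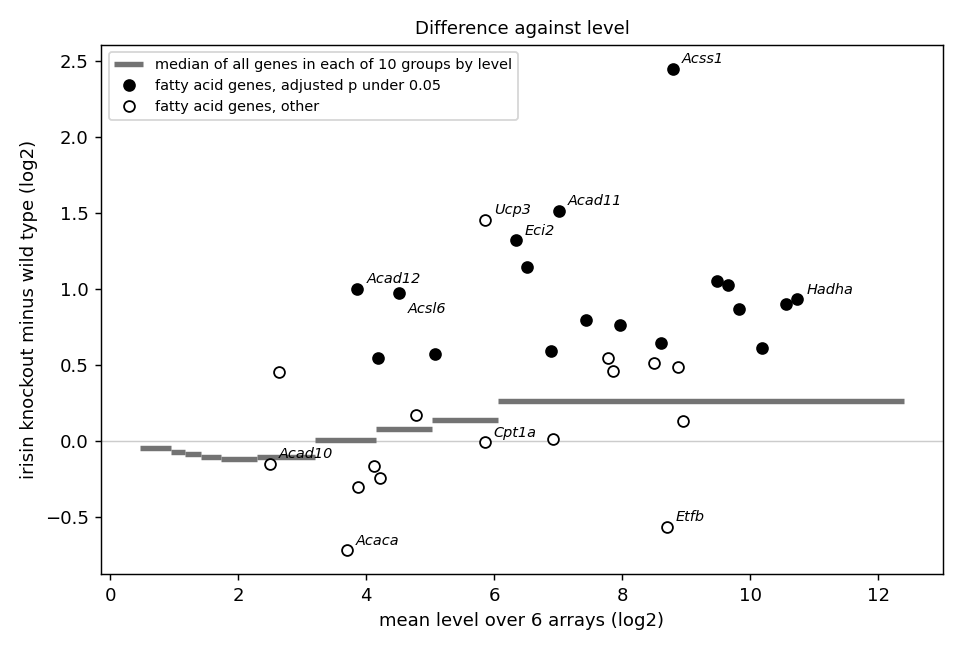
Difference between irisin knockout and wild type (log2, vertical) against mean level over the 6 arrays (log2, horizontal). Grey bars are medians of all genes in each of 10 groups by level, ending at 0.27 in the brightest, and points are the 34 fatty acid genes, most of them above the bar of their group.

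Of 7 genes of fatty acid uptake and activation 3 rose. Acss1, a mitochondrial synthetase that activates acetate and not long acids, read 10.16, 10.00 and 9.88 in irisin knockout arrays, against 7.73, 7.73 and 7.23 in wild type arrays. The groups were separated by 2.15, the widest gap of the 34 genes. Acss1 rose 5.47-fold (difference 2.45, SE 0.17, limma adjusted p = 0.000192). Slc27a1, the fatty acid transport protein FATP1, read 7.06, 7.23 and 7.00 in irisin knockout arrays, against 5.45, 6.33 and 6.06 in wild type arrays. It rose 2.21-fold (SE 0.21, adjusted p = 0.00816). Slc27a4, the related transporter FATP4, did not pass (difference -0.30, 95% interval -0.64 to 0.04).

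Of the 4 long-chain acyl-CoA synthetases with a row, 1 passed. Acsl6 read 4.90, 5.12 and 4.97 in irisin knockout arrays, against 4.12, 4.06 and 3.89 in wild type arrays, with no overlap. It rose 1.96-fold (difference 0.97, SE 0.12, limma adjusted p = 0.00173). Acsl3, Acsl4 and Acsl5 did not pass, at 0.46, -0.25 and -0.17. All 3 knockout values of Acsl3 lay above the wild type values and all 3 of Acsl4 below them, in both cases by small amounts. Acsl3 was dim, with means of 2.86 in irisin knockout and 2.41 in wild type. No detection calls were at hand, so its values may be near background signal. No value was at hand for Acsl1, the synthetase best known from heart.

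The start regions of Acss1 and Acsl6 are shown because these genes rose most clearly among the activating enzymes. Both windows hold 250 bases before and 50 after the transcription start, on the gene's own strand, from RefSeq on build GRCm38.p6. Acss1 lies at chr2:150668191-150668490 (minus strand) and the shown start of Acsl6 at chr11:54303574-54303873 (plus strand). Capitals mark GC boxes (GGGCGG) and, in Acsl6, an ERR element (TNAAGGTCA), each searched on both strands. The ERR element is the binding motif of the oestrogen-related receptors and lies on the opposite strand, 167 to 159 bases before the start.
Acss1: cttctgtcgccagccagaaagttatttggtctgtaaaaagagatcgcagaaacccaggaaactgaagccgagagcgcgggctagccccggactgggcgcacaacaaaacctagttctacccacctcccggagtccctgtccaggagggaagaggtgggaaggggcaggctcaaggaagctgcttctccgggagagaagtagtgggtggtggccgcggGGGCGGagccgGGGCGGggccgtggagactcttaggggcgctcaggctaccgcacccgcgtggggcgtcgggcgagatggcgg
Acsl6: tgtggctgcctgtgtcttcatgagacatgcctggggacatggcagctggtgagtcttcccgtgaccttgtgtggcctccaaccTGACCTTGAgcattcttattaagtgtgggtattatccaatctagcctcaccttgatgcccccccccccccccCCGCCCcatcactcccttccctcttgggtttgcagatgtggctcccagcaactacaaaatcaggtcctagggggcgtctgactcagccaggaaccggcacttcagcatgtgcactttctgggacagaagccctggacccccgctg
Acsl6 has 3 annotated starts, and the other two windows held no ERR element.

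Over the 30 genes with a window in the table, 1 held an ERR element, against 1.17% of the 17452 genes tested here that have a window. A direct repeat of AGGNCA with 1 base in between, the element of the PPAR receptors, was in 0 of 30, against 0.43% of those genes. GC boxes were in 20 of 30 genes (66.7%), against 49.8%. Among them, 13 of the 16 genes that rose and 7 of the 14 that did not pass held a GC box. These exact letters are rare for the receptor motifs, and the windows leave out sites farther away.

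Of 4 genes of the carnitine shuttle, Crat and Cpt2 rose. Crat, the carnitine acetyltransferase of the matrix, read 10.04, 10.19 and 9.82 in irisin knockout arrays, against 8.92, 9.17 and 8.79 in wild type arrays. It rose 2.08-fold (difference 1.06, SE 0.15, limma adjusted p = 0.00271). Cpt2, the inner membrane palmitoyltransferase, read 7.90, 7.90 and 7.70 in irisin knockout arrays, against 6.95, 7.39 and 6.76 in wild type arrays. Cpt2 rose 1.74-fold (SE 0.17, adjusted p = 0.0154), and its knockout values were all above its wild type values. Without irisin knockout 1 or 2 the call of Cpt2 was lost (adjusted p up to 0.0676).

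Cpt1a, the outer membrane enzyme that malonyl-CoA inhibits, did not pass. It read 5.72, 5.92 and 5.90 in irisin knockout arrays, against 5.40, 5.85 and 6.32 in wild type arrays. The knockout values lay inside the wild type range, and the difference was -0.01 with a 95% interval of -0.50 to 0.48. Slc22a5, the plasma membrane carnitine carrier, had overlapping groups too (0.17, interval -0.12 to 0.46). Cpt1b, the main muscle form of the outer enzyme, was not analysed here.

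The acyl-CoA dehydrogenases, which start each round, rose for 6 of 8 genes. Acadm, the medium-chain enzyme, read 10.95, 11.07 and 11.02 in irisin knockout arrays, against 9.89, 10.32 and 10.13 in wild type arrays. It rose 1.87-fold (SE 0.14, limma adjusted p = 0.00355). Acadl, the long-chain enzyme, read 10.51, 10.47 and 10.51 in irisin knockout arrays, against 9.81, 10.05 and 9.79 in wild type arrays, and rose 1.53-fold (SE 0.12, adjusted p = 0.00989). In both genes the 3 knockout arrays were nearly alike and clear of wild type. Acads, the short-chain enzyme, read 7.18, 7.19 and 7.19 in irisin knockout arrays, against 6.42, 6.92 and 6.45 in wild type arrays, and rose 1.51-fold (adjusted p = 0.0317). For Acads, only the fit that left out wild type 2 kept the call (largest adjusted p 0.10 in the others). Acadvl, the very-long-chain enzyme of the inner membrane, did not pass (0.51, SE 0.15, adjusted p = 0.0545), although its groups did not overlap.

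The other 4 acyl-CoA dehydrogenases were less alike in size of difference, from -0.15 to 1.52. Acad11, which acts on long chains and on hydroxylated acids, read 7.84, 7.84 and 7.63 in irisin knockout arrays, against 6.23, 6.59 and 5.94 in wild type arrays. It rose 2.86-fold (difference 1.52, SE 0.17, limma adjusted p = 0.00118), with a gap of 1.04 between the groups. Acad9, which is also an assembly factor of respiratory complex I, read 4.36, 4.62 and 4.39 in irisin knockout arrays, against 4.04, 3.94 and 3.76 in wild type arrays. It rose 1.46-fold (SE 0.13, adjusted p = 0.024), and leaving out any knockout array or wild type 3 ended the call (largest 0.0986). Acad12 read 4.10, 4.38 and 4.61 in irisin knockout arrays, against 3.41, 3.10 and 3.57 in wild type arrays, and rose 2.00-fold (SE 0.17, adjusted p = 0.00598). Acad10 did not: it read 2.38, 2.42 and 2.46 in irisin knockout arrays, against 2.14, 2.90 and 2.67 in wild type arrays (difference -0.15, adjusted p = 0.668).

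Acad12 and Acad10 are neighbours on mouse chromosome 5, and their start regions are printed because Acad12 passed the test and its close relative did not. For Acad12 minus Acad10 the exact permutation p was 0.1, the smallest that 3 against 3 allow. That test therefore could not settle whether these genes changed unequally. On build GRCm38.p6 the windows are chr5:121618889-121619188 (minus strand) for Acad12 and chr5:121660461-121660760 (minus strand) for Acad10, again from RefSeq, and neither held a GC box, an ERR element or the direct repeat.
Acad12: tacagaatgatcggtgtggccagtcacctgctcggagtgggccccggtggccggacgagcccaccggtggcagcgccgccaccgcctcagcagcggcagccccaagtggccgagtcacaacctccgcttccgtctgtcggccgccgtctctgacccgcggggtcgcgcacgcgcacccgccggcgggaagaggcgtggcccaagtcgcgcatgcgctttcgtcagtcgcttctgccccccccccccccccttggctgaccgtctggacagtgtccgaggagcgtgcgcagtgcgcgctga
Acad10: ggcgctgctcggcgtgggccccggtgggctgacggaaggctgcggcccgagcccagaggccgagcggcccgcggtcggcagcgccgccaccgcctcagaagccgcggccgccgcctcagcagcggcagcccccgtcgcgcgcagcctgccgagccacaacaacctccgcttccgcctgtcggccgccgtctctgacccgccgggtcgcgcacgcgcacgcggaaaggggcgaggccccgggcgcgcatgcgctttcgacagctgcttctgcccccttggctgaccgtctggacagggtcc
Aligned to each other, the windows shared 215 of 230 aligned bases (93.5%), with 84 further columns of gaps, so that 68.5% of the 314 alignment columns were identical. The longest unbroken run was 25 bases. Whether the probe sets of these related genes share signal was not tested. Acad10 was dim on all arrays, and no detection calls were at hand, so its low values may be no more than background signal. The gene on the other side of Acad12, Aldh2 (mitochondrial aldehyde dehydrogenase, looked at after its value was seen), rose by 1.52 (SE 0.20, limma adjusted p = 0.00216). Over the 61 protein-coding neighbours of the fatty acid genes that had a row, 9 rose and 7 fell (14.8% and 11.5%), with a median of -0.05. Of all genes tested 10.4% rose and 6.18% fell, and the neighbours were not matched for level.

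The later steps of the cycle rose for Hadha and Hadh. Hadha, the alpha subunit of the trifunctional protein, read 11.18, 11.22 and 11.22 in irisin knockout arrays, against 10.08, 10.44 and 10.29 in wild type arrays. It rose 1.91-fold (difference 0.94, SE 0.13, limma adjusted p = 0.0023). Hadh, the hydroxyacyl-CoA dehydrogenase of shorter chains, read 8.94, 9.00 and 8.85 in irisin knockout arrays, against 8.24, 8.34 and 8.27 in wild type arrays, and rose 1.57-fold (SE 0.11, adjusted p = 0.00591). Both groups were tight in Hadh and did not overlap. Echs1, the short-chain hydratase, and Acaa2, the thiolase of the last step, did not pass. Their differences were 0.46 (95% interval 0.04 to 0.88) and 0.49 (0.08 to 0.89), with adjusted p of 0.132 and 0.107 in limma.

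Of the 3 genes of electron transfer, 1 rose. Etfdh, the membrane enzyme that passes electrons to ubiquinone, read 10.20, 10.26 and 10.05 in irisin knockout arrays, against 9.03, 9.41 and 8.99 in wild type arrays. It rose 2.04-fold (difference 1.03, SE 0.15, limma adjusted p = 0.0027). Etfb, the beta subunit of the flavoprotein, read 8.33, 8.34 and 8.59 in irisin knockout arrays, against 8.52, 9.43 and 9.00 in wild type arrays. Etfb differed by -0.56 and did not pass (adjusted p = 0.123), and wild type 1 lay within the knockout range. After quantile normalization, which forces all arrays to 1 distribution, Etfb passed as lower (-0.84, adjusted p = 0.0371). Etfa, the alpha subunit, stood at 0.13 (interval -0.29 to 0.55), with wild type 2 above all knockout arrays.

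Auxiliary enzymes, which prepare the double bonds of unsaturated acids for the cycle, rose for 3 of 4 genes. Eci2, an enoyl-CoA isomerase found in mitochondria and peroxisomes, read 7.08, 6.97 and 6.96 in irisin knockout arrays, against 5.94, 5.86 and 5.25 in wild type arrays. It rose 2.50-fold (SE 0.19, limma adjusted p = 0.00266). Its mitochondrial relative Eci1 read 8.33, 8.46 and 8.25 in irisin knockout arrays, against 7.26, 7.92 and 7.56 in wild type arrays, and rose 1.70-fold (SE 0.17, adjusted p = 0.0185). Neither gene's groups overlapped. Ech1, a dienoyl-CoA isomerase, read 10.31, 10.23 and 10.25 in irisin knockout arrays, against 8.87, 9.92 and 9.39 in wild type arrays, and rose 1.83-fold (SE 0.23, adjusted p = 0.0367). The wild type arrays of Ech1 were spread over about a log2 unit, and its call was lost without any knockout array or without wild type 3 (adjusted p up to 0.114). Leaving out irisin knockout 1 or 2 or wild type 3 ended the call of Eci1 (largest 0.0803). Decr1, the dienoyl-CoA reductase, missed the threshold at 0.55 (SE 0.16, adjusted p = 0.0515) with groups that did not overlap.

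The window of Eci2 is shown as that of the auxiliary enzyme with the largest rise, and the window of Acad11 as that of the dehydrogenase with the largest rise. They lie at chr13:34994095-34994394 (minus strand) and chr9:104063474-104063773 (plus strand) on GRCm38.p6, per RefSeq. Capitals mark GC boxes, of which Eci2 has 3 and Acad11 has 1, all on the opposite strand.
Eci2: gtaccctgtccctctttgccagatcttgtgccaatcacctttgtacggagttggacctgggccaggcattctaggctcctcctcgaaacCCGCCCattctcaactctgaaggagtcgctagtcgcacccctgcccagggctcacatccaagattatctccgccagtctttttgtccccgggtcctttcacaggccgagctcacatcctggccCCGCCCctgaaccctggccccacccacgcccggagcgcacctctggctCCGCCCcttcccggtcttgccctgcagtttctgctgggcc
Acad11: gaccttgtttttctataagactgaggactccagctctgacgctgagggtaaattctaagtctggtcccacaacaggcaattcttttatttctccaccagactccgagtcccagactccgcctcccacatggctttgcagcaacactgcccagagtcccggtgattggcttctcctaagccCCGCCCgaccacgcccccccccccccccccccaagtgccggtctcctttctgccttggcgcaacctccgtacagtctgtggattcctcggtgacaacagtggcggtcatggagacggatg

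**Figure D3:**
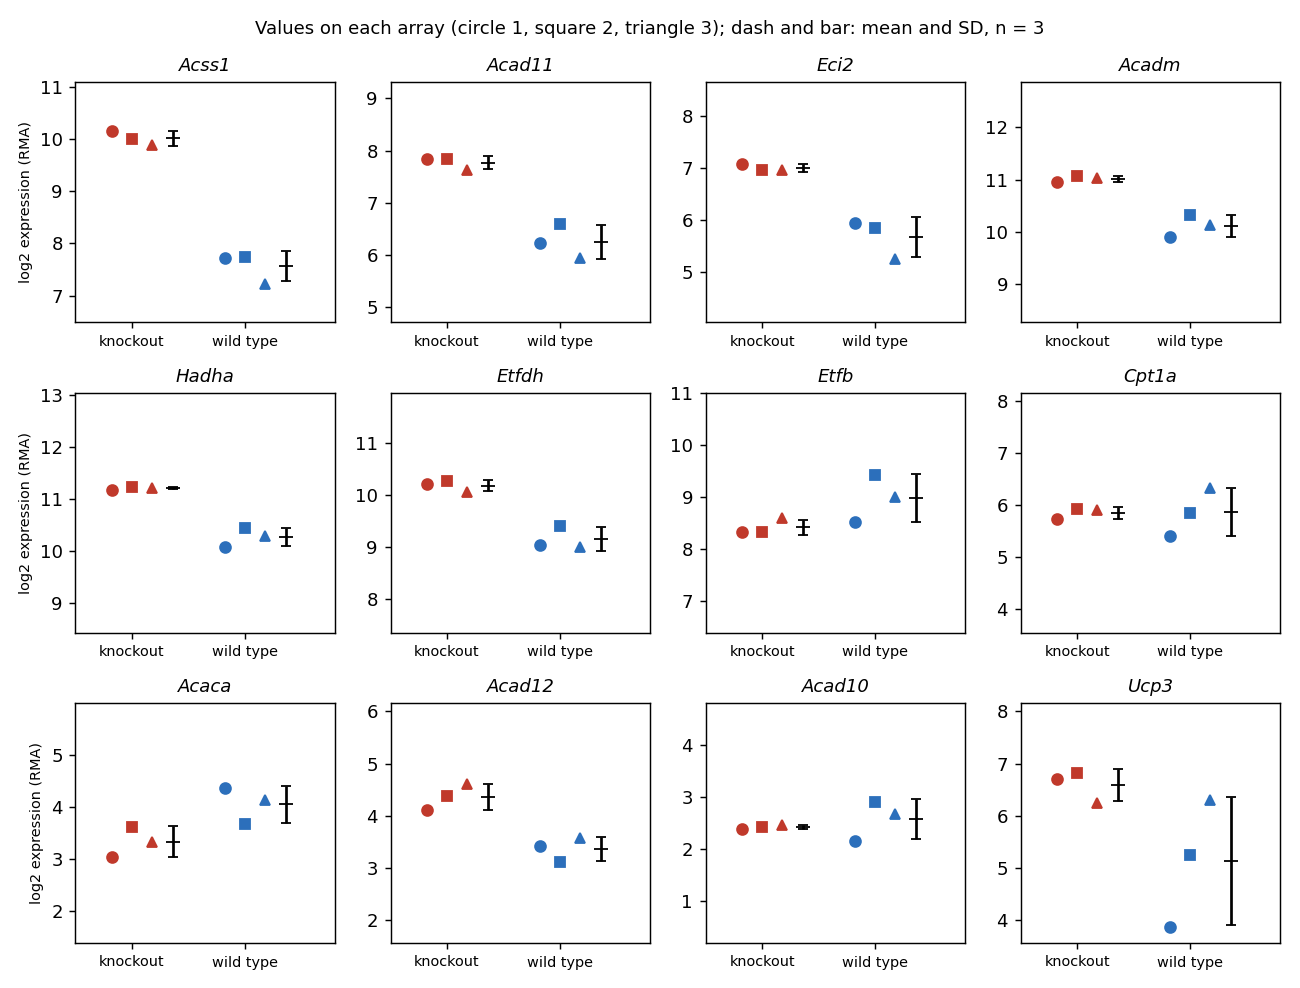
Log2 expression on each array for 12 of the genes, irisin knockout left and wild type right, with the mean and SD of the 3 arrays beside them; every panel spans the same number of log2 units. The knockout arrays lie above wild type for Acss1, Acad11, Eci2, Acadm, Hadha, Etfdh and Acad12, and overlap wild type for Etfb, Cpt1a, Acad10 and Ucp3.

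Malonyl-CoA control gave 1 rise. Mlycd, the decarboxylase that removes malonyl-CoA, read 5.34, 5.42 and 5.33 in irisin knockout arrays, against 4.58, 4.95 and 4.83 in wild type arrays. It rose 1.49-fold (difference 0.58, SE 0.13, limma adjusted p = 0.0182), and leaving out any knockout array ended the call (largest 0.0764). Acacb, the carboxylase that makes malonyl-CoA at the mitochondrion, read 6.84, 6.86 and 7.06 in irisin knockout arrays, against 6.54, 7.15 and 7.02 in wild type arrays. Its difference was 0.02 with an interval of -0.38 to 0.41, and the groups overlapped. Acaca, the cytosolic carboxylase of fatty acid synthesis, read 3.05, 3.63 and 3.34 in irisin knockout arrays, against 4.36, 3.67 and 4.14 in wild type arrays. All knockout values of Acaca were below wild type, narrowly so for wild type 2, and the difference of -0.72 (SE 0.21) had an adjusted p of 0.0504. Acaca passed as lower after quantile normalization (adjusted p = 0.0465).

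Ucp3, an uncoupling protein of muscle mitochondria, read 6.69, 6.83 and 6.25 in irisin knockout arrays, against 3.86, 5.25 and 6.30 in wild type arrays. The wild type arrays were far apart, and wild type 3 lay within the knockout range. The difference of 1.46 (95% interval 0.29 to 2.63) did not pass in limma (adjusted p = 0.0932). It was 2.04 without wild type 3, which passed (adjusted p = 0.0156), and 0.82 without wild type 1, which did not.

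Related genes were then compared within each array, where a shift that is equal for all genes of an array cancels. A shift that depends on level does not cancel. The median difference of all genes was 0.005 in level group 7, which holds Slc27a4, and 0.27 in the brightest, which holds Slc27a1. Of 18 pairs planned, 11 had both genes, and each was tested with a two-sided exact permutation test over the 6 arrays, whose smallest possible p is 0.1. The within-array differences of knockout and wild type did not overlap for 8 of the 11 pairs, or for 6 of the 9 without Acad10, whose values may be background signal. Each of those 8 pairs had an exact permutation p of 0.1, and 0.138 after Benjamini-Hochberg adjustment over the 11, so none passed. No share over other gene pairs was computed, and several of the pairs have a gene in common. Among single genes, the groups overlapped for 15269 of all 23185, but for only 809 of the 2319 in the brightest group. Etfb minus Etfa was -0.61, -0.62 and -0.55 in irisin knockout arrays, against -0.13, 0.13 and 0.30 in wild type arrays. The within-array values of this pair were apart by -0.69, although the arrays overlapped for Etfb alone. The group difference, irisin knockout minus wild type, was -1.45 for Slc27a4 minus Slc27a1, 0.56 for Mlycd minus Acacb and, with the limit on Acad10, -1.67 for Acad10 minus Acad11 and 1.15 for Acad12 minus Acad10. For Acadvl, Acadl and Acads, each minus Acadm, it was -0.39, -0.28 and -0.31. The pairs Acaca and Acacb (-0.73, p = 0.2), Eci2 and Eci1 (0.56, p = 0.2) and Acad9 and Acadvl (0.03, p = 1 in exact permutation tests) overlapped.

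**Figure D4:**
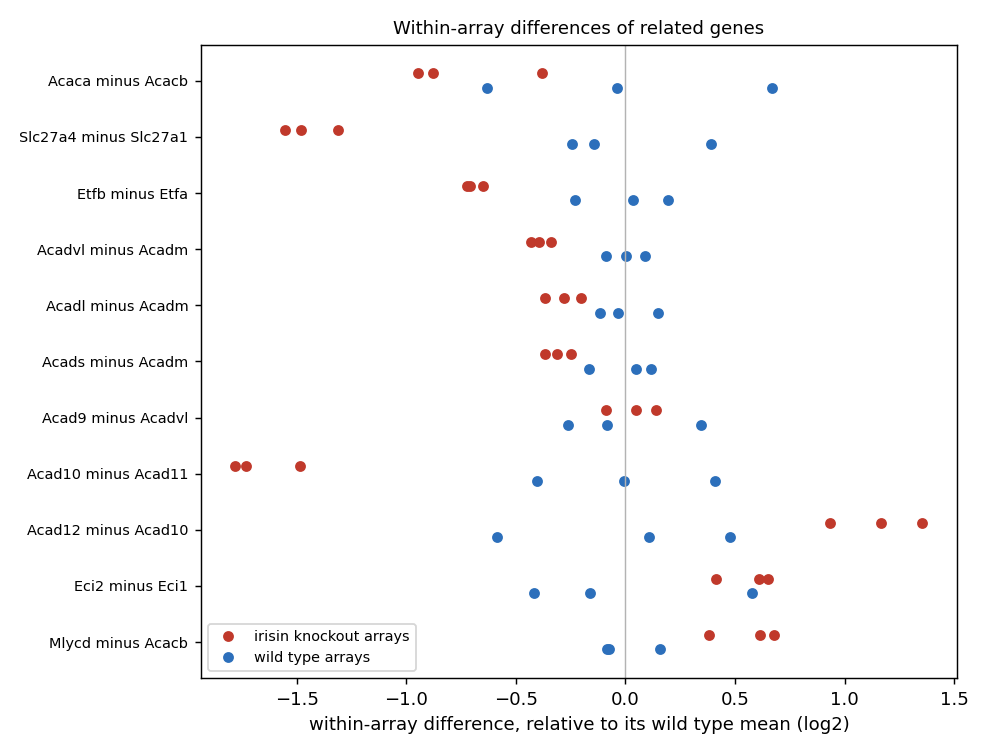
Within-array log2 difference of related genes, drawn relative to its wild type mean, for 11 pairs (first gene minus second). Red points are the 3 irisin knockout arrays and blue points the 3 wild type arrays; the sets do not overlap for 8 pairs, such as Etfb minus Etfa at -0.69.

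The knockout arrays were more alike than the wild type arrays for these genes. The SD over 3 arrays was smaller in the knockout for 30 of the 34, with a median of 0.11 in the knockout and 0.30 in wild type. Over all genes it was smaller in the knockout for 62.9%, with medians of 0.14 and 0.18, and in the brightest group for 77.1%. Wild type 2 was the highest wild type array for 24 of the 34 genes and wild type 1 the lowest for 19. Over all 23185 genes the corresponding counts were 7900 and 8137. In the brightest group of 2319 genes they were 877 and 617.

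Markers of heart cell types were set beside these genes on each array. The mean over the 34 genes was 7.11, 7.20 and 7.11 in irisin knockout arrays 1, 2 and 3, against 6.41, 6.73 and 6.53 in wild type arrays 1, 2 and 3. The mean over 10 cardiomyocyte markers was 11.05, 11.10 and 11.19 in irisin knockout arrays, against 10.81, 11.20 and 11.04 in wild type arrays. The mean over the cardiomyocyte markers thus overlapped between the groups, whereas the mean over the fatty acid genes did not. For the cardiomyocyte markers, wild type 2 lay above all knockout arrays, and wild type 1 and 3 below them. Taken singly, 10 of the 34 fatty acid genes overlapped between the groups. The mean over 8 fibroblast markers was 5.99, 6.22 and 6.17 in irisin knockout arrays, against 7.67, 6.81 and 7.64 in wild type arrays. Wild type 2, with the lowest fibroblast marker mean of the wild type arrays, had the highest mean over the fatty acid genes among them. Against wild type 2 alone, the knockout mean was higher by a median of 0.42 over the 34 genes, and by 0.75 and 0.70 against wild type 1 and 3. For all genes of the brightest group the corresponding medians were 0.25 against wild type 2, and 0.20 and 0.36 against wild type 1 and 3. Over all genes they lay between -0.04 and -0.02.

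**Figure D5:**
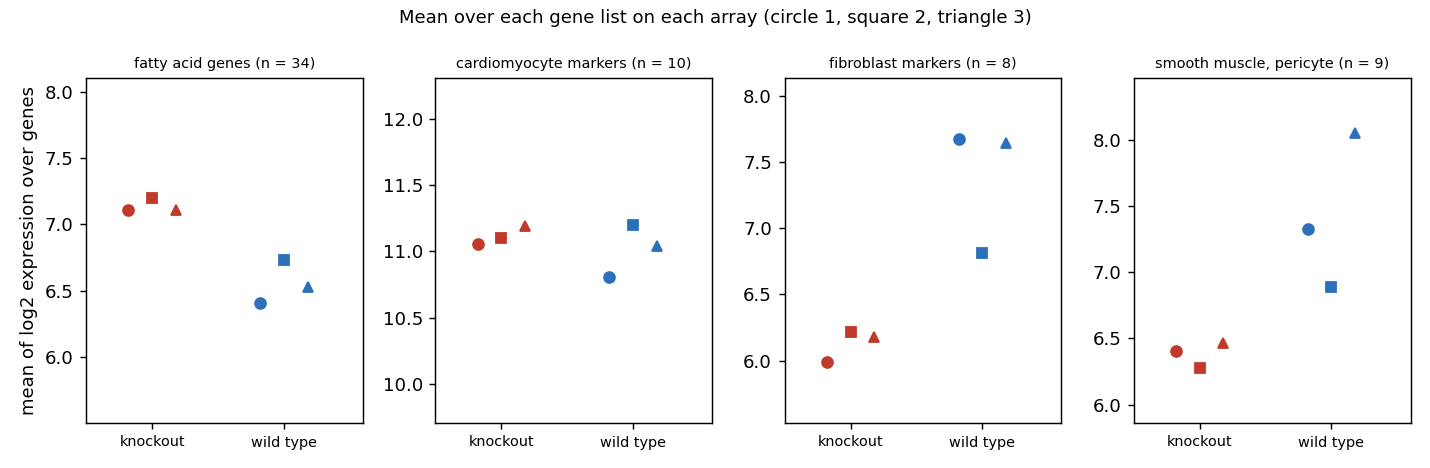
Mean log2 expression over each gene list on each array, irisin knockout left and wild type right (circle, square and triangle for arrays 1, 2 and 3). The fatty acid genes separate the groups (7.11 to 7.20 against 6.41 to 6.73), the cardiomyocyte markers overlap, and the fibroblast markers lie lower in the knockout.

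The material carried the defining markers of cardiomyocytes, with Myh6 and Tnnt2 among the brightest genes of the array. Of the 10 cardiomyocyte markers, Pln and Actn2 rose and 0 fell. The summed linear level of the 10 was 25878 to 26688 in irisin knockout arrays, against 19797 to 26321 in wild type arrays. All 10 belong to the brightest group, of which 34.5% rose and 11.1% fell. Of the 8 fibroblast markers 5 fell and 0 rose, with sums of 1470 to 1606 in irisin knockout arrays, against 1769 to 2861 in wild type arrays. Over all genes 6.18% fell, and in the brightest group, which holds most of these fibroblast markers, 11.1% fell. Those that fell were the collagens Col1a1, Col1a2 and Col3a1, with Postn and Pdgfra, whereas Dcn (-0.01), Lum (-0.33) and Tcf21 (0.10) did not pass. Smooth muscle and pericyte markers went both ways: of 9, 5 smooth muscle genes fell and the pericyte genes Rgs5, Kcnj8 and Abcc9 rose (sums 2447 to 2627 in irisin knockout arrays, against 2324 to 3829 in wild type arrays). Endothelial markers fell for 2 of 7 (sums 1238 to 1428 in irisin knockout arrays, against 1541 to 1609 in wild type arrays), and macrophage markers for 1 of 7 (226 to 233 in irisin knockout arrays, against 254 to 257 in wild type arrays). None of 5 adipocyte, 3 brown adipocyte, 7 skeletal muscle or 2 red cell markers passed. Adipocyte sums were 19.2 to 22.1 in irisin knockout arrays, against 16.9 to 30.1 in wild type arrays. Red cell sums were 23.1 to 37.5 in irisin knockout arrays, against 28.4, 176 and 27.5 in wild type arrays 1, 2 and 3. The part of these shifts in the fatty acid gene differences was not tested.

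Other genes of fatty acid use moved in both directions. Of 53 with a row, 19 rose, 5 fell and 29 did not pass, with a median of 0.31, against 10.4% and 6.18% of all genes. The lowest p values belonged to Acot2, an acyl-CoA thioesterase whose near copy Acot1 may share its probes (3.97), Bdh1, which oxidises the ketone body hydroxybutyrate (2.29), and Acsf2, an acyl-CoA synthetase of mitochondria (2.34). Next came the thiolase Acat1 (1.50), the kinase subunit Prkaa2 (1.54), the peroxisomal reductase Decr2 (1.57), the bifunctional enzyme Ehhadh (0.89) and the carnitine carrier Slc25a20 (1.18). Each of these 8 rose with a limma adjusted p of at most 0.0023. The 5 that fell, named after their values were seen, were the peroxisomal thiolase Acaa1a (-0.59), the brain form Cpt1c (-0.66), the peroxisomal carrier Slc25a17 (-0.48), the fatty acid binding protein Fabp4 (-0.68) and the regulator Nrf1 (-0.40). Of the 6 fits that each left out an array, 5 kept the call of Acaa1a, 3 that of Cpt1c, 2 that of Slc25a17, 1 that of Fabp4 and 0 that of Nrf1.

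How many fatty acid genes passed depended on scaling and on single arrays. After quantile normalization 13 rose and Etfb and Acaca fell, against 8.13% and 6.59% of all genes, with a median of 0.44. In the brightest group 9 of 21 then rose, against 21.8% of that group. Cpt2, Acads, Hadh, Ech1, Eci1 and Mlycd lost their calls under that scaling, and Acsl3 gained one. Leaving out wild type 2 added calls for Acadvl, Echs1, Acaa2 and Decr1 as higher and Acaca as lower. Leaving out wild type 1 added Acsl3 as higher and Etfb as lower (limma adjusted p = 0.0162 and 0.0167). Without irisin knockout 1, the array with remaining Fndc5 signal, 12 rose and 0 fell, against 6.62% of all genes higher, and the median was 0.59. Of the 21 in the brightest group 10 then rose, against 23.0% of that group. With irisin knockout 1 and wild type 1 both left out, chosen after seeing the data, 12 rose, against 7.63% of all genes. Here 9 of the 21 in the brightest group rose, against 26.9% of that group. The calls of Slc27a1, Acsl6, Acss1, Crat, Acadm, Acad11, Acad12, Hadha, Etfdh and Eci2, 10 genes in all, held after quantile normalization, without both arrays numbered 1 and in each of the 6 fits without 1 array. How many of all genes, or of the brightest group, kept a call in all of these fits was not counted. These 10 thus have no background share beside them.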

How the data were processed

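Per the labels' protocols, RNA was isolated with TRIzol and labelled with the WT Plus reagents for Affymetrix arrays. The authors deposited log2 values summarised by RMA, with affy 1.61.0 and R 3.6.0 listed per the submitters' processing notes (the log2 scale was read from the range of the values). No source used here states a genome build or probe set definition. Of 25206 rows, 23185 had 1 symbol in the platform annotation and were tested, and 2021 had none.

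Groups came from the sample titles. Each gene was fitted with limma 3.58.1 (lmFit, eBayes, R 4.3.3) on genotype alone, two-sided, with Benjamini-Hochberg adjusted p under 0.05 over the 23185 genes as the threshold and no filter. The code was tested on simulated data. Genes, lists, pairs and tests were chosen with earlier results of these data known. All 34 genes are named. Array values are given for genes past the threshold, for the CPT1, carboxylase and uncoupling genes and Fndc5 by rule, and for Etfb and Acad10 by choice after seeing them. Other genes of fatty acid use are named up to 8 by p, and 3 of their 56 names had no row.

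Alternatives were quantile normalization, centring on array medians, dropping the dimmest 30% of genes, an intensity trend, robust variance, array weights, a replicate block, all rows, a threshold of 0.01 and leaving out arrays. Promoter windows (34, for 30 genes) came from RefSeq, and 1 pair was aligned locally with Biopython 1.88 (match 1, mismatch -1, gap opening -2, extension -0.5). Marker sums add values taken off the log2 scale.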

Additional observations from a re-analysis of the deposited data

How the results depend on the processing

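Over 544 differences of the 34 genes under other settings, 470 kept their direction and their side of the threshold. A call was lost in 40 and gained in 24, and 10 changed sign, all 10 in genes without a call. Testing all rows, an intensity trend, robust variance and the replicate block left each difference itself unchanged by construction. So did dropping the dimmest 30% of genes and the threshold of 0.01. Under these settings only calls could change. Acaca or Etfb accounted for the genes called lower: 2 after quantile normalization, and 1 each with array weights, with robust variance and without the dimmest 30% of genes (Acaca in all 3 of these), with 0 to 1 in the fits without 1 array. The median difference was 0.44 after quantile normalization. Signs changed for Cpt1a after centring (0.091), for Etfa (-0.13) and Acacb (-0.21) after quantile normalization, and for Acacb without both arrays numbered 1 (-0.13). Without 1 array each, Cpt1a ranged from -0.24 to 0.22, Acacb from -0.16 to 0.14, Acsl5 from -0.27 to 0.017, Acad10 from -0.36 to 0.016 and Acad9 minus Acadvl from -0.10 to 0.21. Fndc5 differed by -2.01 with robust variance (adjusted p = 0.0635) and missed a threshold of 0.01 at the same -2.01; without 1 array it ranged from -2.75 to -1.63. Over all genes, 2416 were higher and 1432 lower, against 3090 and 1008 after centring, which moved the median of all genes to 0.06 (-0.05 as deposited), and 1886 and 1528 after quantile normalization. They numbered 1256 and 528 at a threshold of 0.01, 1403 to 2570 and 701 to 1593 without 1 array, with 938 lower without both arrays numbered 1. The cause of these changes was not tested.

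The replicate numbers were shared between the groups, but the deviations of same-numbered arrays correlated at only 0.09, 0.05 and 0.07, so the numbers were not taken to pair the arrays, although 5 of the 6 arrays correlated best with their own number (wild type 2 did so with irisin knockout 3). With the replicate block 18 of the 34 genes rose and 0 fell, and 2247 genes were higher over the whole table; Slc25a17 and Nrf1 lost their calls (adjusted p = 0.0551 and 0.0932 in limma). Protein identities planned for the pairs, and pairs with Acsl1, Cpt1b, Hadhb or Ucp2, were not run.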
